A study of Mus musculus with 30 samples.

Results

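Rnf2 and Ring1 encode the paralogous RING finger ubiquitin ligases of Polycomb repressive complex 1 (PRC1), RING1B and RING1A. Both were taken by gene symbol from the probe annotation of mouse germ cell arrays, and they made up 2 of the 19937 genes with a probe set of a single symbol. Each had 1 probe set, 10358698 for Rnf2 and 10450089 for Ring1, and both probe sets lay above the 40th percentile of their own array on 30 of 30 arrays. The series compared gene expression in fetal germ cells with and without Rnf2 on Affymetrix arrays, with 10 groups of 3 arrays. The control genotype was labelled Ring1+;Rnf2+ and the mutant genotype Ring1+;Rnf2delta, called Rnf2delta here, so every group carried Ring1. Control cells came from female and male embryos at embryonic days E11.5, E12.5 and E13.5. Rnf2delta cells came from both sexes at E11.5 and E12.5. All groups shared a mixed 129/Sv and C57BL6J background and an Oct4(deltaPE)-GFP transgene, a germ cell reporter by which the cells were sorted, and RNA of 500 cells was amplified for each sample.

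PRC1 represses developmental genes by compacting chromatin and by attaching a single ubiquitin to histone H2A. RING1A or RING1B carries the catalytic activity and pairs with 1 of several PCGF proteins, which decide whether CBX and PHC subunits (canonical PRC1) or RYBP and YAF2 (variant PRC1) join the complex. The paralogues can stand in for one another in part, and RING1B is the main ligase in mouse embryonic stem cells. In fetal germ cells PRC1 is known for holding back differentiation genes.

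The labels do not say what deleted Rnf2, which exons were lost, or whether the 3 arrays of a group were separate embryos, litters or pools, and the spread between arrays behind each p-value may therefore be technical. The position of the Rnf2 probe set relative to the deletion was not available here either. Probes outside the deleted exons would still read a truncated transcript, so the Rnf2 signal is a check of the labels only where it falls, and the residual signal has no direct reading as intact Rnf2 RNA. Differences are of log2 signal and come from limma with 1 mean for each of the 10 groups, with Benjamini-Hochberg adjustment over 15180 genes and a threshold of 0.05. Levels of different probe sets are not comparable, so the signals of Rnf2 and Ring1 are not set against each other.

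The cells carried the labelled markers. All 15 germ cell markers, among them Pou5f1 at 8.45 to 9.71, lay above the 40th percentile on 30 of 30 arrays, and their mean per array was 6.34 to 6.89. The mean of the other marker lists was 2.59 to 3.16 for supporting cells, 2.29 to 2.55 for interstitial cells, 1.94 to 2.28 for steroidogenic cells, 1.99 to 2.50 for macrophages and 2.55 to 3.05 for endothelium, where Pecam1, which germ cells also express, reached 7.45. The Y-linked Eif2s3y read 1.5 to 2.16 on female and 4.50 to 5.65 on male arrays, while Xist overlapped between the sexes (1.9 to 4.06 and 1.7 to 2.51). Xist was higher in Rnf2delta cells without overlap in E12.5 females (3.02 to 4.06 against 2.33 to 2.88) and E12.5 males (2.31 to 2.51 against 1.85 to 2.04). Of all genes, 17.7% and 14.6% did not overlap in these comparisons. Xist lay above the 40th percentile on only 15 of 30 arrays. The 6 E12.5 female arrays stood apart: arrays within those groups correlated at 0.964 to 0.978, against 0.983 to 0.990 within the other 8 groups. Replicate 3 of Rnf2delta E12.5 males stood apart in its erythroid mean, 4.40 against at most 2.50 on the other 29 arrays, with the embryonic globin Hbb-y at 9.71.

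Rnf2 signal was lower in Rnf2delta cells of both sexes at E12.5, falling to 48.8% of control in males and 64.7% in females, and it was lower over all 4 stage and sex comparisons. Ring1 did not pass the limma threshold in any of the 4, with 1 of them, E12.5 males, below 0.05 before adjustment. In E12.5 males the 3 control arrays read 5.22, 5.68 and 5.21 for Rnf2, and the 3 Rnf2delta arrays 4.09, 4.45 and 4.46. All 3 Rnf2delta arrays lay below the lowest control array, as in 14.6% of all genes. The difference was -1.03 ± 0.19 (SE, n = 3 and 3; 95% interval -1.41 to -0.65; limma adjusted p = 0.0022), and 0.119% of all genes tested were called lower in this comparison. It was the 9th largest fall among 15180 genes. Without the Rnf2delta array that carried the erythroid signal the difference was -1.10 (adjusted p = 0.00473).

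In E12.5 females the control arrays read 5.71, 5.24 and 5.08 for Rnf2 and the Rnf2delta arrays 4.47, 5.0 and 4.68. The groups did not overlap, which held for 17.7% of all genes, although the highest Rnf2delta array came close to the lowest control array. Rnf2 fell by 0.63 ± 0.19 (limma adjusted p = 0.029), where 2.16% of all genes were called lower. This call depended on single arrays: limma's adjusted p was 0.16 without control replicate 1, 0.148 without Rnf2delta replicate 1 and 0.0582 without Rnf2delta replicate 3. It was also lost with array weights (-0.52, adjusted p = 0.364), when only the groups compared entered the fit (-0.63, adjusted p = 0.299) and with the replicate number as a block (adjusted p = 0.05 after rounding).

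At E11.5 the difference in Rnf2 did not pass the threshold in either sex. Female control arrays read 4.56, 4.61 and 4.46, and female Rnf2delta arrays 3.96, 3.81 and 4.04. The female arrays did not overlap between genotypes, which held for 14.2% of all genes. The female difference was -0.61 ± 0.19 (95% interval -0.99 to -0.23; limma adjusted p = 0.20), and the exact permutation p was 0.10, the smallest that 3 arrays against 3 can give. Before adjustment its limma p was 0.0029, close to the 0.0021 of the -0.63 in E12.5 females. The adjustment depends on all genes of a comparison, and 84 were called in E11.5 females against 1502 in E12.5 females. The call at only 1 of the 2 stages is thus no sign of a stage difference in females. Male control arrays read 4.79, 4.13 and 4.70, and male Rnf2delta arrays 4.01, 4.11 and 4.57. Control replicate 2 stood as low as the Rnf2delta arrays and Rnf2delta replicate 3 lay above it, so the male groups overlapped. The male difference was -0.31 ± 0.19 (95% interval -0.69 to 0.07; limma adjusted p = 0.80), which leaves 80.7% of the control signal with an interval of 62.0% to 105%.

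**Figure D1:**
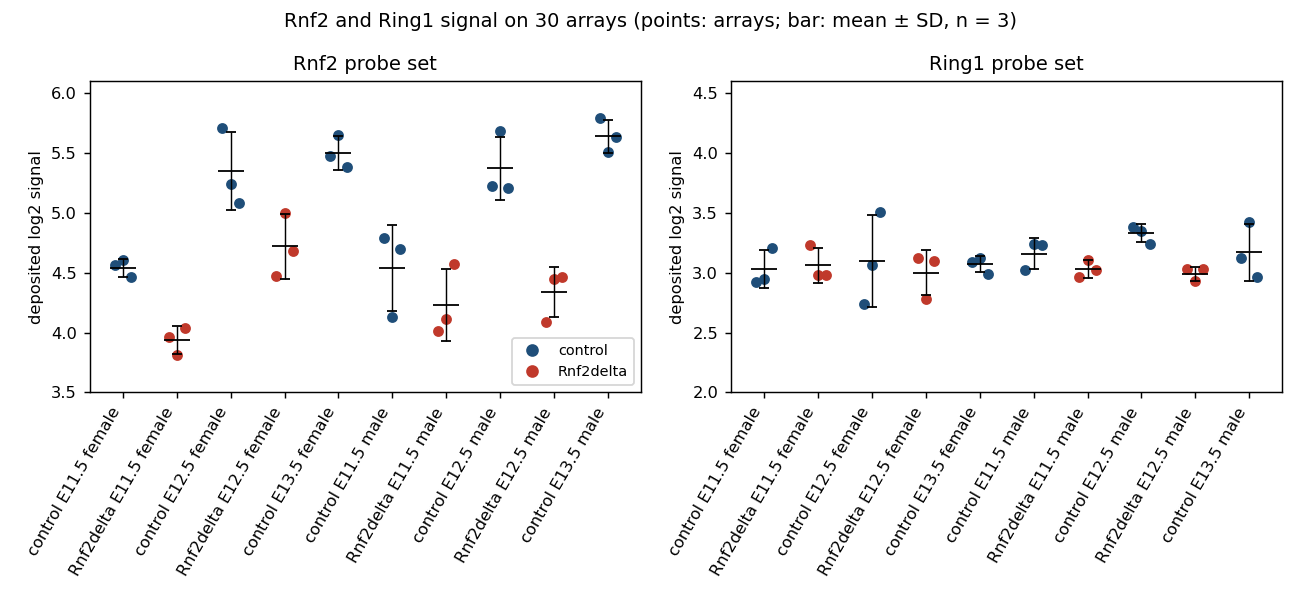
Log2 signal of Rnf2 and of Ring1 (vertical axes, the same span of log2 units with different limits) on each of 30 arrays by stage, sex and genotype; points are arrays and bars are the group mean ± SD (n = 3). Rnf2delta arrays lie below all control arrays for Rnf2 in 3 of the 4 stage and sex comparisons, and Ring1 stays between 2.74 and 3.51 throughout.

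Averaged over the 4 stage and sex comparisons, Rnf2 was lower by 0.64 on the log2 scale (difference -0.64 ± 0.09; 95% interval -0.83 to -0.45; limma adjusted p = 1.5e-05), which is 64.0% of the control signal (56.1% to 73.0%). In this pooled comparison 2.17% of all genes were called lower. The direction was the same in 4 of 4 comparisons. An exact permutation test that exchanged genotype labels within stage and sex gave a two-sided p of 7.5e-05 over 160000 permutations. The fall was -0.65 (limma adjusted p = 6.25e-05) over the 3 comparisons left without the E12.5 female arrays. Whether the fall differed between groups was tested directly. In males the difference at E12.5 minus that at E11.5 was -0.73 ± 0.26 (95% interval -1.26 to -0.19), with a limma adjusted p of 1. Before adjustment its limma p was 0.01, and it was the only 1 of the 4 Rnf2 interactions below 0.05. The same interaction in females was -0.02 ± 0.26 (limma adjusted p = 0.98). Between the sexes the difference in the Rnf2 effect was -0.30 ± 0.26 at E11.5 and 0.41 ± 0.26 at E12.5 (female minus male; limma adjusted p = 1 and 0.52). Of all genes, 0% were called for the interaction with stage in males and 0.145% in females, and 0% and 0.296% for the interaction with sex at E11.5 and E12.5.

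Ring1, the paralogue left in the labelled genotype, read 3.38, 3.35 and 3.24 in E12.5 male controls and 3.03, 2.93 and 3.03 in E12.5 male Rnf2delta cells. These arrays did not overlap, which held for 14.6% of all genes. The difference was -0.33 ± 0.15 (95% interval -0.64 to -0.02; limma adjusted p = 0.52), with an exact permutation p of 0.10. In E12.5 females the controls read 2.74, 3.06 and 3.51 and the Rnf2delta arrays 3.12, 2.78 and 3.10. The control arrays alone covered a wider range than the Rnf2delta arrays, and the difference was -0.10 (95% interval -0.41 to 0.21).

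At E11.5 the Ring1 arrays of both genotypes overlapped in each sex. Female controls read 2.92, 2.95 and 3.21 and female Rnf2delta arrays 3.23, 2.98 and 2.98, a difference of 0.04 (95% interval -0.27 to 0.35). Male controls read 3.02, 3.24 and 3.23 and male Rnf2delta arrays 2.96, 3.11 and 3.02, a difference of -0.13 (-0.44 to 0.18). Over all 4 comparisons Ring1 differed by -0.13 ± 0.08 (95% interval -0.29 to 0.02; limma adjusted p = 0.31), or 91.3% of control with an interval of 82.0% to 102%. The exact permutation p was 0.089, and Ring1 was lower in 3 of the 4. Leaving out 1 array at a time moved the difference between -0.18 and -0.08. Ring1 signal lay between the 52.7 and 67.5 percentile of all probe sets of its array, close to the array medians of 2.52 to 2.66, and log2 differences of dim probe sets understate changes in RNA. None of the 4 Ring1 interactions of genotype with stage or sex passed the threshold, and 0 were below 0.05 before adjustment (limma adjusted p = 0.68 to 1, differences -0.20 to 0.23, SE 0.21).

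**Figure D2:**
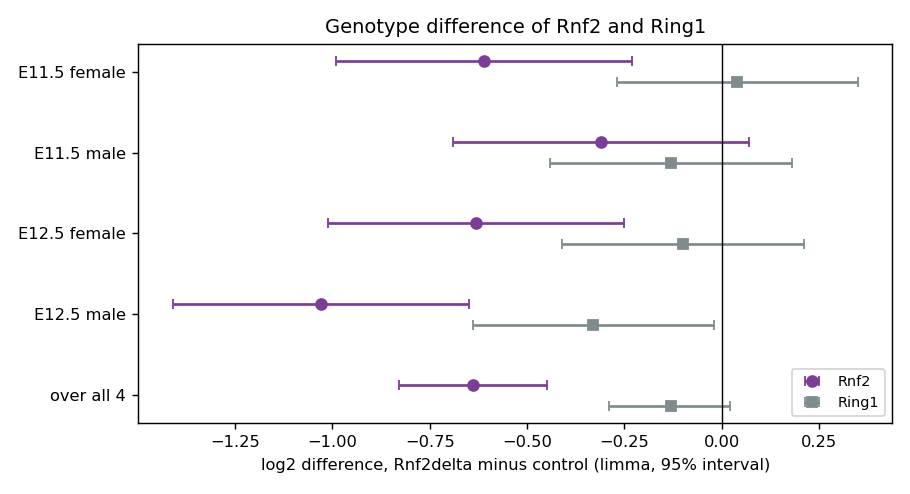
Rnf2delta minus control log2 signal (horizontal axis) of Rnf2 and Ring1 in the 4 stage and sex comparisons and over all 4; points are fitted differences and bars their 95% intervals. The Rnf2 intervals lie below 0 except in E11.5 males, and those of Ring1 span 0 except in E12.5 males.

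The change of Rnf2 relative to Ring1 was then taken within each array, as the Rnf2 minus the Ring1 log2 signal, which removes any shift shared by the pair on an array. Its mean changed by -0.51 ± 0.16 between genotypes over the 4 comparisons (exact permutation test within stage and sex, two-sided p = 0.0037), and it was negative in 4 of 4. By comparison it was -0.64 in E11.5 females, -0.18 in E11.5 males, -0.53 in E12.5 females and -0.70 in E12.5 males, each ± 0.31. In E11.5 females and E12.5 males the arrays did not overlap, with an exact permutation p of 0.10 in each. In the other two comparisons they overlapped. Log2 differences of the dim Ring1 probe set may understate its change, and the part of this in the Rnf2 minus Ring1 values was not tested.

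Normal germ cells gained Rnf2 signal between E11.5 and E12.5. In control females the mean rose from 4.54 to 5.35, from arrays of 4.46 to 4.61 at E11.5 to arrays of 5.08 to 5.71 at E12.5, without overlap, as in 27.2% of all genes. The rise was 0.80 ± 0.19 (limma adjusted p = 0.0027), or 174% of the E11.5 signal (134% to 227%), where 4.56% of all genes were called higher. In control males Rnf2 rose by 0.83 ± 0.19 (limma adjusted p = 0.014) to 178% of the E11.5 signal (137% to 232%), where 0.962% of all genes were called higher. The male E11.5 arrays spanned 4.13 to 4.79 and all lay below the E12.5 arrays of 5.21 to 5.68, as in 25.2% of all genes. The male call was lost without control E11.5 replicate 2 (0.63, adjusted p = 0.105) or control E12.5 replicate 2 (0.68, adjusted p = 0.0933).

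From E12.5 to E13.5 the control difference in Rnf2 did not pass the threshold. E13.5 females read 5.47, 5.65 and 5.38, and E13.5 males 5.79, 5.51 and 5.63. These arrays overlapped those of E12.5 in both sexes. The differences were 0.15 (95% interval -0.23 to 0.54) in females and 0.27 (-0.11 to 0.65) in males, with limma adjusted p of 0.61 and 0.71. Of all genes, 21.8% were called in females and 1.1% in males.

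The Rnf2 signal of Rnf2delta cells was compared between the same stages. In Rnf2delta females it rose by 0.78 (95% interval 0.40 to 1.16; limma adjusted p = 0.0035) from arrays of 3.81 to 4.04 to arrays of 4.47 to 5.0, where 6.96% of all genes were called higher. These arrays did not overlap, as in 31.9% of all genes. In Rnf2delta males the difference was 0.11 (-0.27 to 0.49; limma adjusted p = 0.90), and the arrays overlapped. The test of whether the rise differed between genotypes is the interaction of genotype with stage given above. Its limma adjusted p was 0.98 in females and 1 in males, where it was 0.01 before adjustment. Ring1 had 0 of 6 stage differences past the limma threshold, and 0 below 0.05 before adjustment. Its 6 differences between successive stages lay between -0.16 and 0.16, each with an interval of ± 0.31 (limma adjusted p = 0.70 to 0.96). Of all genes, 18.8% were called from E11.5 to E12.5 in control females, 2.62% in control males, 18.6% in Rnf2delta females and 0.547% in Rnf2delta males.

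**Figure D3:**
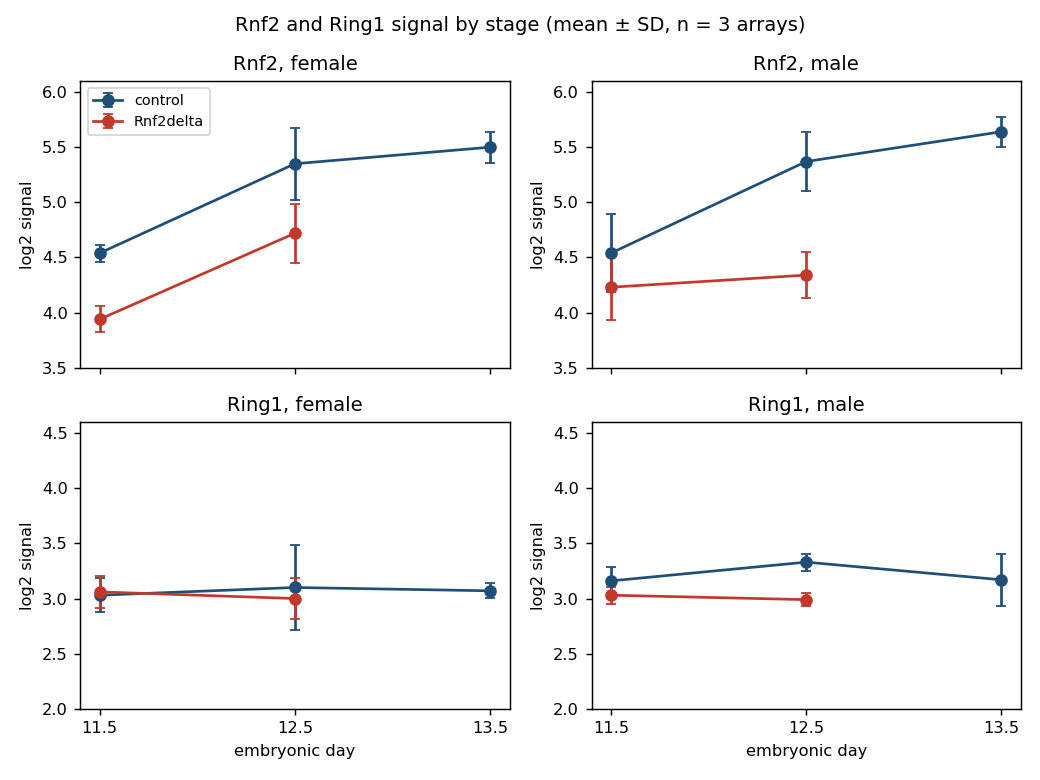
Group mean log2 signal ± SD (vertical axis, n = 3 arrays) of Rnf2 and Ring1 by embryonic day, for females and males, with control and Rnf2delta groups. Control Rnf2 rises from 4.54 at E11.5 in both sexes to 5.35 in females and 5.37 in males at E12.5, while Ring1 group means stay between 2.99 and 3.33.

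No sex difference in Rnf2 passed the threshold. In control cells the female minus male differences were 0.00 (95% interval -0.38 to 0.38) at E11.5, -0.03 (-0.41 to 0.35) at E12.5 and -0.14 (-0.52 to 0.24) at E13.5. In Rnf2delta cells of E11.5 it was -0.30 (-0.68 to 0.09). In Rnf2delta cells at E12.5 the 3 female arrays of 4.47 to 5.0 lay above the 3 male arrays of 4.09 to 4.46, by 0.38 with a limma adjusted p of 0.18. At that stage and genotype 25.8% of all genes did not overlap between the sexes. For Ring1 the differences between the sexes ran from -0.22 to 0.03. Of all genes, 0.25%, 19.1% and 16.3% were called between the sexes in controls of E11.5, E12.5 and E13.5, and 0.323% and 15.2% in Rnf2delta cells of E11.5 and E12.5. By limma 0 of the 5 Ring1 differences passed the threshold or were below 0.05 before adjustment, but the E12.5 control difference did so without control female replicate 3, the highest Ring1 array of all (-0.43, limma adjusted p = 0.0404).

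Ordered by mean Rnf2 signal, the groups ran from Rnf2delta E11.5 females at 3.94 ± 0.118 (SD, n = 3), Rnf2delta E11.5 males at 4.23 ± 0.298 and Rnf2delta E12.5 males at 4.34 ± 0.21 to control E11.5 males at 4.54 ± 0.357, control E11.5 females at 4.54 ± 0.077 and Rnf2delta E12.5 females at 4.72 ± 0.269. Above a gap came control E12.5 females at 5.35 ± 0.328, control E12.5 males at 5.37 ± 0.266, control E13.5 females at 5.5 ± 0.141 and control E13.5 males at 5.64 ± 0.138. Among the 9 steps between neighbours only the one from Rnf2delta to control E12.5 females, 0.63, passed the threshold. The other 8 steps were at most 0.30 (limma adjusted p = 0.55 to 1). Rnf2 differed past the threshold in 25 of the 45 pairs of groups, against 13% of all gene and pair tests. These were all 24 pairs of a control group of E12.5 or E13.5 with one of the other 6 groups, plus Rnf2delta females of E11.5 against E12.5. That division of the groups was chosen after the Rnf2 values were seen. The Rnf2delta means at E12.5, 4.34 in males and 4.72 in females, stood on either side of the E11.5 control means of 4.54.

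For Ring1 the group means ran from 2.99 ± 0.058 in Rnf2delta E12.5 males to 3.33 ± 0.077 in control E12.5 males, and by limma 0 of 45 pairs passed the threshold, with 2 below 0.05 before adjustment. All 9 neighbouring groups overlapped, with steps of at most 0.16. The SD between the group means was 0.101, and the pooled SD of single arrays within groups was 0.179. For Rnf2 these values were 0.6 and 0.239. Means of 3 arrays vary less than single arrays, so the 2 kinds of SD are not on the same scale. Across the 30 arrays Rnf2 and Ring1 correlated at r = 0.148, and at -0.492 after each group's mean was subtracted. The arrays share scaling and groups, so these values are a description only.

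The genes that work with both ligases were taken as 61 partners, of which 58 were measured. Over all 4 comparisons 11 of the 58 were called higher and 1 lower in Rnf2delta cells, 20.7% in all, where 8.14% of all genes were called higher and 2.17% lower. Their median difference was 0.07, against 0.01 for all genes. By comparison, 2 of 58 partners were called higher in E11.5 females (3.45%, against 0.54% of all genes), 2 in E11.5 males (3.45%, against 0.679%), 8 in E12.5 females (13.8%, against 7.73%) and 1 in E12.5 males (1.72%, against 0.843%). The 8 in E12.5 females became 2 with array weights and 0 when only the groups compared entered the fit.

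Among canonical PRC1 partners, 3 of 11 were called higher and 1 lower over all 4 comparisons, 36.4% in all. The shares of all genes were 8.14% called higher and 2.17% called lower. Cbx8, a chromodomain subunit that binds trimethylated lysine 27 of histone H3, read 2.11 to 2.27 in control and 3.61 to 3.92 in Rnf2delta E11.5 males, and 2.35 to 2.53 and 4.01 to 4.09 in E12.5 males. In females it read 2.16 to 2.45 in control and 3.36 to 3.95 in Rnf2delta cells at E11.5, and 2.84 to 3.25 and 3.92 to 4.72 at E12.5. Every Rnf2delta array lay above every control array of its stage and sex. In a single comparison, non-overlap in either direction held for 14.2% to 17.7% of all genes. Cbx8 rose by 1.43 ± 0.09 over all 4 comparisons (limma adjusted p = 4.7e-12), with 1.61 in E11.5 males, where the Rnf2 difference was smallest, and 1.60 in E12.5 males, where it was largest. Cbx8 was not above the 40th percentile of its array on 2 of 3 E11.5 male and 1 of 3 E11.5 female control arrays, so the E11.5 differences may understate the change. Its call in E12.5 females was lost when only the groups compared entered the fit (adjusted p = 0.0677). Bmi1 (PCGF4), a binding partner of both ligases, rose by 0.63 ± 0.12 over all 4 (adjusted p = 6.6e-04). The chromodomain subunit Cbx2 rose by 0.36 ± 0.08 (adjusted p = 0.0034). Pcgf2 (MEL18), the closest paralogue of Bmi1, fell by 0.26 ± 0.08 (adjusted p = 0.043), a call lost in 17 of its 32 alternatives.

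Of the variant PRC1 partners 6 of 24 (25%) were called higher over all 4, where 8.14% of all genes were called higher. Bcor, the corepressor of the PCGF1 complex, rose by 0.80 ± 0.08 (limma adjusted p = 8.5e-08). At E11.5 its male control arrays spanned 3.70 to 4.26 and its male Rnf2delta arrays 4.68 to 5.06, without overlap, as in 15.6% of all genes. Yaf2, which occupies the place of CBX proteins on the ligase, rose by 0.58 ± 0.10 (adjusted p = 2.1e-04). Of the DNA-binding proteins of the PCGF6 complex, E2f6 rose by 0.42 ± 0.08 (adjusted p = 2.8e-04) and Mga by 0.49 ± 0.09 (adjusted p = 5.1e-04). Their dimer partners did not pass the threshold, Tfdp1 at -0.06 (adjusted p = 0.63) and Max at -0.08 (adjusted p = 0.57). In E12.5 females Kdm2b, which brings the PCGF1 complex to unmethylated CpG islands, was higher by 0.66 ± 0.15 (adjusted p = 0.0050). The Kdm2b call was lost with array weights (adjusted p = 0.113) and with only the groups compared (adjusted p = 0.209).

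None of the 10 ubiquitin-conjugating (E2) enzymes and deubiquitination genes passed the limma threshold over all 4, with 1 below 0.05 before adjustment. Mysm1, a histone H2A deubiquitinase, was called in E12.5 females (0.77 ± 0.19, limma adjusted p = 0.011). That call was lost in 5 of its 13 alternatives, among them array weights (adjusted p = 0.18) and only the groups compared (adjusted p = 0.293). The last list joined PRC2, the writer of H3K27 methylation, with proteins that bind ubiquitinated H2A. Of its 13 genes 2 (15.4%) were called higher over all 4, where 8.14% of all genes were called higher. The accessory subunit Phf19 rose by 0.43 ± 0.09 (adjusted p = 0.0020) and the histone chaperone Rbbp7 by 0.32 ± 0.07 (adjusted p = 0.0030). Without the E12.5 female arrays their differences were 0.30 and 0.18 (adjusted p = 0.083 and 0.187). Partners also changed with stage in control females. Of the 58, 9 were called higher and 6 lower from E11.5 to E12.5 (25.9%, against 18.8% of all genes). The 9 included Cbx8, Bmi1, Yaf2, Tfdp1 and Rbbp7. From E12.5 to E13.5, 11 were called higher and 7 lower (31%, against 21.8%). Cbx8, Kdm2b, Phf19 and Mysm1 were then higher, and Pcgf2, Max and Tfdp1 lower. The part of stage in the genotype differences was not tested.

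**Figure D4:**
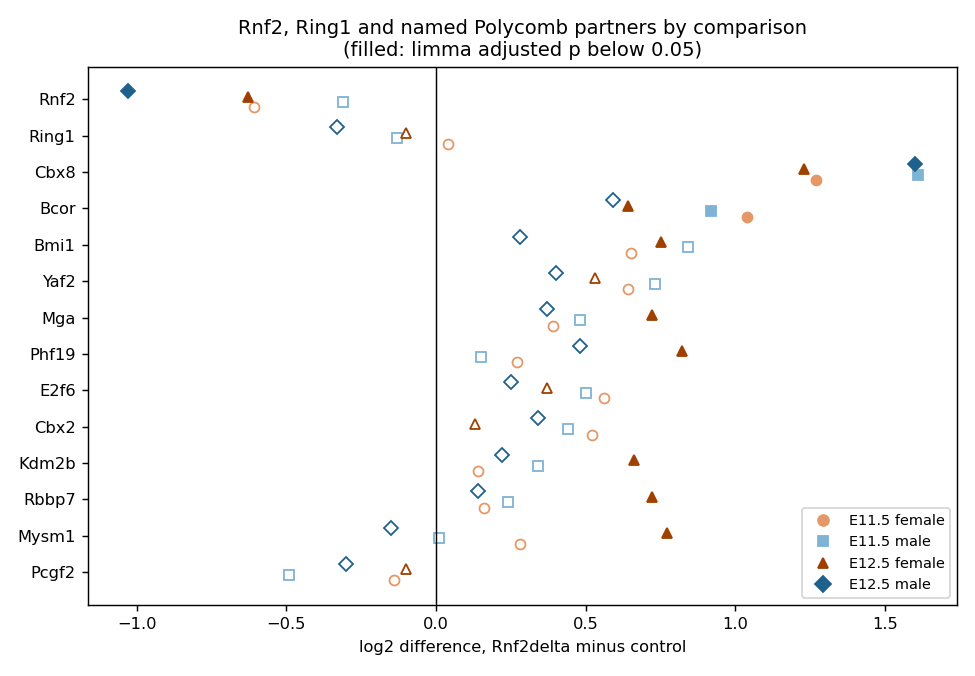
Rnf2delta minus control log2 signal (horizontal axis) of Rnf2, Ring1 and the named partner genes in each stage and sex comparison; filled points have a limma adjusted p below 0.05. Cbx8 is filled in all 4 comparisons with differences of 1.23 to 1.61, and Rnf2 is filled in both E12.5 comparisons.

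Some low signals of other cell types also separated between genotypes, with no test run on them. For single genes such separation held for 14.2% to 17.7% of all genes by comparison. The supporting, steroidogenic and macrophage means overlapped in all 4 comparisons. These signals were dim: without Pecam1 the endothelial mean was 1.88 to 2.35, near the array 40th percentiles of 2.20 to 2.40. The endothelial mean was lower in Rnf2delta cells without overlap in E11.5 females (2.72 to 2.79 against 2.88 to 2.92), E12.5 females (2.56 to 2.62 against 2.79 to 2.91) and E12.5 males (2.57 to 2.71 against 2.73 to 2.88). Without Pecam1 it still did not overlap in either female comparison, but in E12.5 males it did (1.95 to 2.10 against 2.03 to 2.20). The erythroid mean was lower without overlap in E11.5 females (2.08 to 2.18 against 2.30 to 2.48), E11.5 males (1.95 to 2.08 against 2.13 to 2.36) and E12.5 females (2.08 to 2.20 against 2.23 to 2.50), while in E12.5 males it was higher in Rnf2delta cells, with overlap. The interstitial mean was lower in E12.5 females (2.29 to 2.41 against 2.41 to 2.50). Their part in the Rnf2, Ring1 and partner differences was not tested, and in bulk RNA fewer cells of a type cannot be told apart from less RNA per cell.

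Genes whose pattern over the 30 arrays was most like that of Rnf2 were Etfbkmt (Pearson r = 0.80), a mitochondrial lysine methyltransferase, the mitophagy receptor Bnip3l (0.781), the methylarginine reader Tdrd3 (0.769), the SUMO ligase Zfp451 (0.766) and Lix1l (0.751). Of these 5, 4 were also among the first 5 by Spearman's rho, but 1 without the E12.5 female arrays. Ring1 came in place 4215 of 15179 for Rnf2. The 5 most like Ring1 were T2 (0.673), Fem1al (0.653), Myo15b (0.618), the death effector domain gene Dedd (0.616) and the splicing factor Scnm1 (0.609). Only 1 of them was among the first 5 by Spearman's rho and 0 without the E12.5 female arrays. The arrays share groups and scaling, so these places describe this set of arrays.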

How the data were processed

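The 30 Affymetrix arrays formed 10 groups of 3. The authors deposited 1 value per array for 34760 probe sets, read here as log2 signal from its range. Per the submitters' processing notes they used R 2.15 and the affy package 1.36, and the sources used here give no background correction, normalization or genome build. With 3 arrays in a group, array number limits precision. Probe sets with 1 gene symbol (21640) were kept, 1321 with several symbols and 11799 without one were left out, and 21553 symbols were updated by Entrez identifier through a RefSeq table of GRCm38.p6. The probe set of highest mean stood for a gene. Genes above the 40th percentile on at least 3 arrays were tested (15180). Differences were fitted with limma 3.58.1 in R 4.3.3 as 1 mean per group, with 20 residual degrees of freedom. Permutation tests were exact and two-sided (Python 3.11.15). Adjusted p-values cover all genes tested. Named genes were Rnf2, Ring1, the 5 most like each by Pearson r, up to 4 called members of each partner list and comparison by smallest p, and markers. The members, partner lists and tests were chosen with earlier results of these data known. The replicate numbers of control and Rnf2delta arrays were taken not to pair them, since the labels do not say that they do. Of 12 same-number correlations of deviations from group means, 6 exceeded 0.1 (range -0.14 to 0.293), which does not settle the pairing. All 3 E11.5 male pairs did (0.104 to 0.16), where neither Rnf2 nor Ring1 was called with or without the block. The highest, 0.293, was in E12.5 males, where the Rnf2 call held with the block. In E12.5 females the block removed the Rnf2 call. The script was tested on simulated data for the E12.5 male comparison with 15180 genes, of which 200 were changed, and recovered 52.9% at a log2 change of 0.65, 89.4% at 1 and 100% at 2. It made 9 false calls. The simulation gave each gene 1 SD for all arrays. In the real data the median SD within a group was 0.238 in control E12.5 females and 0.149 in control E12.5 males, so these shares do not carry over to the female comparison. Alternatives were array weights, only the groups compared, quantile normalization, the mean of all probe sets, other filters, a replicate block, leaving out the 6 E12.5 female arrays, and leaving out each array. The pooled comparison without the E12.5 female arrays was added after seeing the data.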

Additional observations from a re-analysis of the deposited data

How the results depend on the processing

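For Rnf2, 293 of 314 alternative values over 20 results kept their direction and their side of the threshold, 8 lost the call and 13 changed sign. For Ring1, 293 of 314 did so, 1 gained a call and 20 changed sign. The Rnf2 fall over all 4 comparisons was called under every alternative run, from -0.70 to -0.60. The E12.5 female fall was -0.52 with array weights, -0.63 with only the groups compared, -0.63 with the replicate block (limma adjusted p = 0.05, rounded, no longer under the threshold) and -0.77 to -0.45 leaving out 1 array. The labels do not say that a replicate number marks a shared litter or day, and the block changed no other Rnf2 or Ring1 call. The control male rise from E11.5 to E12.5 was 0.63 to 0.95 and the Ring1 sex difference in E12.5 controls -0.43 to -0.04 leaving out 1 array. Called partners became 5 with array weights and 4 without the E12.5 female arrays in E11.5 males, 2 with array weights, 0 with only the groups compared and 5 to 12 leaving out 1 array in E12.5 females, and 2 under both array weights and without the E12.5 female arrays in E12.5 males. Calls over all genes, behind the printed shares, moved too. In E12.5 females they numbered 1502, against 54 with only the groups compared, 254 with array weights and 843 without Rnf2delta replicate 1. They were 84 in E11.5 females (39 to 157 over the alternatives), 109 in E11.5 males (50 to 344) and 146 in E12.5 males (73 to 285). Small differences that did not pass the threshold changed sign. For Rnf2 these were the genotype by stage interaction in females (0.10 with array weights, -0.16 to 0.16 leaving out 1 array), the control sex differences at E12.5 (0.18 with quantile normalization, -0.21 to 0.13) and E11.5 (-0.20 to 0.13), and the Rnf2delta male stage difference (0.00 to 0.28). For Ring1, leaving out 1 array, they were genotype in E11.5 females (-0.05 to 0.13) and E12.5 females (-0.28 to 0.10), genotype by stage in females (-0.32 to 0.06), stage in control females (-0.13 to 0.26, then -0.21 to 0.17 to E13.5), Rnf2delta females (-0.12 to 0.05) and Rnf2delta males (-0.08 to 0.00, and 0.00 with quantile normalization), and sex in E13.5 controls (-0.20 to 0.03), E11.5 Rnf2delta (-0.05 to 0.07) and E12.5 Rnf2delta cells (-0.05 to 0.12, -0.03 with array weights, -0.01 with quantile normalization). The Rnf2 minus Ring1 change in E11.5 males was -0.42 to 0.02. Of the 5 genes most like Rnf2, 1 was shared without the E12.5 female arrays, and of those most like Ring1, 1 by Spearman's rho and 0 without those arrays. The cause was not tested for any of these.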
